A study of Mus musculus with 2 samples.

Results

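Mitochondrial ribosomal protein genes were examined in polyadenylated RNA from the pancreas of a single adult C57BL/6J female mouse, the common inbred reference strain, aged 10 weeks. The group consists of 2 technical libraries of 1 biological sample, with no treatment or mutation labelled, so no condition was compared and the only contrast is between libraries. Per the labels, replicate 2 was made after the study's first publication. Replicate 2 held 9797569 deposited expected counts and replicate 1 held 9441559. The genes were chosen by name and not by level: every protein-coding gene with a symbol of Mrpl or Mrps followed by a number, which gave 77 of the 43346 gene rows, 48 of the large subunit and 29 of the small subunit. Mrpl33, which is also annotated under this rule, was not analysed here.

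Mitochondria hold ribosomes of their own, which translate the few messenger RNAs of the mitochondrial genome into core subunits of the respiratory chain and ATP synthase. The ribosomal RNAs come from the mitochondrial genome itself, while every protein is encoded in the nucleus, made in the cytosol and imported. Many of these proteins descend from bacterial ribosomal proteins, and others exist only in mitochondrial ribosomes. Acinar cells, which make up most of the pancreas, are specialised for secretory protein synthesis on cytosolic ribosomes. The subunit was taken from the gene symbol; by structure, Mrps30 and Mrps18a belong to the large subunit, and Mrps36 is a component of the 2-oxoglutarate dehydrogenase complex.

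The tissue label was checked against marker genes. Amy2a5, a pancreatic amylase of acinar cells, stood at 24375 TPM in replicate 2 and 28162 TPM in replicate 1, and the insulin gene Ins2 at 17977 and 13969 TPM. TPM is a level corrected for transcript length and set to the same total in each library. Among genes of other tissues, Alb of liver, Apoa1 of liver and Myh6 of heart stood under 1 TPM in both libraries, whereas Nphs1, the nephrin gene best known from kidney, stood at 25.7 and 17.2 TPM. The libraries differed in composition: the lincRNA Gm42418 alone held 33.2% of TPM in replicate 2 and 10.96% in replicate 1, and what it takes is missing from the TPM of all other genes.

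The 77 genes lay on 17 chromosomes, with 11 on chromosome 11, 8 on chromosome 17 and 7 on chromosome 6. They were short: the dominant transcript had a median length of 937 bases and 4 exons, against 2543.5 bases and 8 exons for protein-coding genes at 1 TPM or more in both libraries (9884 of 9964 with a length). GC content was close, with medians of 51.5% and 50.4%. Many of their starts lay close to that of another gene. In 33 of 77 genes (42.9%), a protein-coding gene on the opposite strand started within 1 kb, against 1619 of 9964 protein-coding genes (16.3%) at 1 TPM or more in both libraries. The share was 24 of 48 (50%) in the large subunit and 9 of 29 (31.0%) in the small subunit. These shares describe the annotation and were not tested, since neighbouring genes are not independent.

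Several of the partners also serve mitochondria. They were named after all partners were seen, and how often other genes have such partners was not examined. Mrpl43 lies opposite Twnk, the mitochondrial replicative helicase, and Mrpl36 and Mrpl47 lie opposite Ndufs6 and Ndufb5, subunits of respiratory complex I. Mrps12 lies opposite Sars2, the mitochondrial seryl-tRNA synthetase. Mrps27 lies opposite Ptcd2, a mitochondrial pentatricopeptide repeat protein. Levels within such a pair could be far apart. Mrps12, which shapes the decoding centre, stood at 20.8 TPM in replicate 2 and 10.8 TPM in replicate 1, and Sars2 at 1.13 and 1.64 TPM. Mrpl49 stood at 2.71 and 3.23 TPM opposite Fau, the ubiquitin-like fusion gene of a cytosolic ribosomal protein, at 262 and 251.3 TPM.

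Mrpl46 and Mrps11 are the only pair in which both partners belong to the set. Mrpl46 is a protein of the central protuberance of the large subunit, and Mrps11 is a protein of the small subunit platform with a bacterial homologue. On chromosome 7 they run in opposite directions. In GENCODE the Mrpl46 start lies at 78783531 and the Mrps11 start at 78783119, 412 bases apart, and each lies inside the other gene. The RefSeq start of Mrpl46 instead lies at a lower coordinate than that of Mrps11. By RefSeq, neither start then lies inside the other gene. Mrpl46 stood at 3.05 TPM in replicate 2 and 5.19 TPM in replicate 1. Mrps11 stood at 4.17 and 7.09 TPM. Both were thus lower in TPM in replicate 2, by about the same factor (0.588 each). Their scaled count ratios, however, lay on either side of 0, at -0.47 for Mrpl46 (95% interval -1.30 to 0.29) and 0.37 for Mrps11 (-0.47 to 1.21). Both intervals span 0. Mrpl46 had 22 counts in replicate 2 and 43 in replicate 1, with deposited effective lengths of 958 and 948 bases. Mrps11 had 25 and 27 counts, with 795 and 436 bases. The equal factor in TPM was therefore not an equal change in counts.

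Promoter windows show what the genes share in sequence. RefSeq windows from 250 bases before to 50 bases after the annotated start (build GRCm38.p6) were found for 68 of the 77 genes, in 74 windows, since some genes have several starts. Each was searched for the core TGCGCA of NRF1, a factor known for its role in nuclear genes of mitochondria, and for the core CGGAAG of the ETS family, which includes GABP, on either strand. The NRF1 core was present in 22 of 74 windows (29.7%), against 13.9% of 10225 windows of protein-coding genes at 1 TPM or more in both libraries and 7.76% of all 32851 windows. The ETS core was present in 39 of 74 windows (52.7%), against 31.2% and 16.9%. Both cores stood together in 15 windows (20.3%), against 5.25% and 2.32%.

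The large subunit held the NRF1 core in 12 of 47 windows (25.5%) and the small subunit in 10 of 27 (37.0%); for the ETS core the counts were 23 (48.9%) and 16 (59.3%). The set was also compared with other genes at like base composition. Among windows between the quartiles of the set's GC content (54.3% to 64.6%), the NRF1 core was in 11 of 36 windows of the set (30.6%) and in 16.1% of the 4037 windows of detected protein-coding genes. The ETS core was in 22 of 36 (61.1%), against 35.8%. In the windows of the set, the 60 ETS matches lay at a median of 24 bases before the start. The 28 NRF1 matches lay at a median of 62 bases before it. Overlapping windows of Mrps16 hold some sites in common, so these are 58 and 27 distinct sites. Positions of matches in windows of other genes were not examined. A match is a run of letters and shows no binding.

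**Figure D1:**
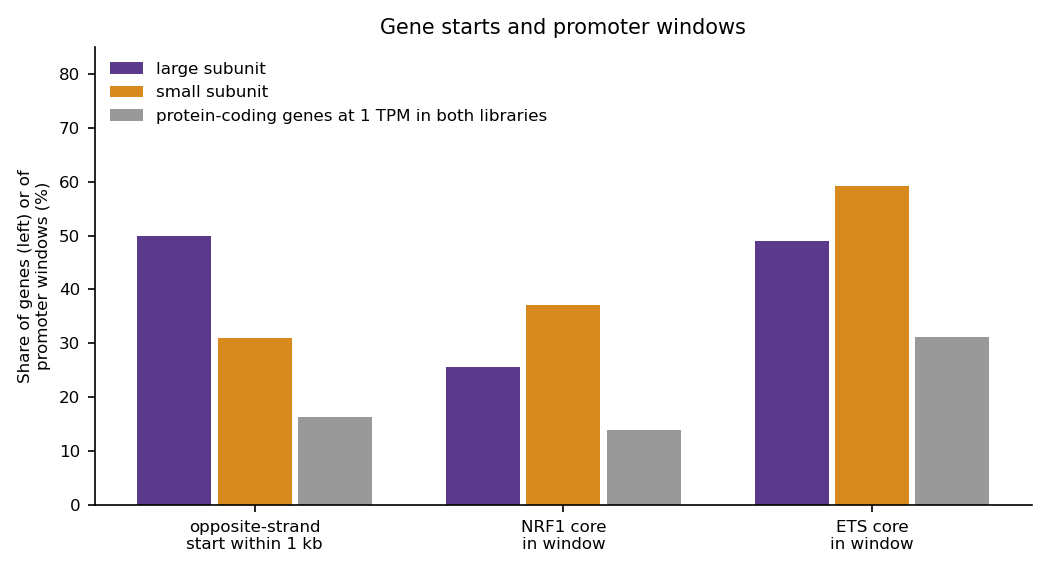
Share of genes with an opposite-strand protein-coding start within 1 kb (left bars) and share of promoter windows with an NRF1 or ETS core (middle and right bars), in percent, for the large subunit, the small subunit and protein-coding genes at 1 TPM or more in both libraries. The large subunit is highest for opposite starts (50%, against 31.0% in the small subunit), and the small subunit is highest for both cores (37.0% and 59.3%).

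A few windows are shown, chosen after their matches were seen: Mrpl24 and Mrps21 had the highest mean levels of their subunits, Mrps24 had the highest ratio between the libraries, Mrpl17 and Mrps24 serve as examples with both cores, and Mrps11 and Mrpl46 share their start region. Capitals mark the NRF1 core and the ETS core or its reverse complement, and each sequence reads 5′ to 3′ along the gene's own strand, with the annotated start 50 bases before the end of the line.
Mrpl24 (chr3:87919294-87919593, plus strand): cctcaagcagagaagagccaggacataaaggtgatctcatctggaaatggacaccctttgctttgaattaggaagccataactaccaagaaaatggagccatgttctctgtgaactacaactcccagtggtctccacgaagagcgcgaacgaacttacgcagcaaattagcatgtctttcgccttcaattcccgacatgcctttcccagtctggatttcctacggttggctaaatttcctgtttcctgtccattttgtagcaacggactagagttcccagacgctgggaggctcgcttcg
Mrps21 (chr3:95871465-95871764, minus strand): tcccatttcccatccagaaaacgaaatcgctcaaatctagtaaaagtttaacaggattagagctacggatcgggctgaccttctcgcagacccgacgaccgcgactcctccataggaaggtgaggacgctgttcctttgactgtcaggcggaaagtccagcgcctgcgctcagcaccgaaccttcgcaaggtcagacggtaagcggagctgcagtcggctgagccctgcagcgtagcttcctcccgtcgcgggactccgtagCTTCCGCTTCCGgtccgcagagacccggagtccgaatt
Mrpl17 (chr7:105811038-105811337, minus strand): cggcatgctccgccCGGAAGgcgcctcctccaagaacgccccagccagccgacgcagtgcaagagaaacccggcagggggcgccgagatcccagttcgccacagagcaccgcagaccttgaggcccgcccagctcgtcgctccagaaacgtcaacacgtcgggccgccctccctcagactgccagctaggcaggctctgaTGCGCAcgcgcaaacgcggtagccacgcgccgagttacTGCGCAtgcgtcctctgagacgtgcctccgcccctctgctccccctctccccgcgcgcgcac
Mrps24 (chr11:5707652-5707951, minus strand): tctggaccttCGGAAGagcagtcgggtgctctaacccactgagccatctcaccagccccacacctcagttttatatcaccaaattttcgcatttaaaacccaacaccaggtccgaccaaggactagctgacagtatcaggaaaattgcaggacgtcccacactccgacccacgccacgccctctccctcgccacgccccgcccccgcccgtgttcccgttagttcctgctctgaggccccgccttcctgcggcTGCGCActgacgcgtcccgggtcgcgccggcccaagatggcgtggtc
Mrps11 (chr7:78782881-78783180, plus strand): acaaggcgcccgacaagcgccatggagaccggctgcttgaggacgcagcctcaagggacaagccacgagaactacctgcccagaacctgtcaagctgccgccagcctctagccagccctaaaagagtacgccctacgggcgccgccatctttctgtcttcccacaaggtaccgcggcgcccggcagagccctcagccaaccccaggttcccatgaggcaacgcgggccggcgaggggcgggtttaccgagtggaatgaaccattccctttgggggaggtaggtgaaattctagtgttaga
Mrpl46 (chr7:78783040-78783339, minus strand): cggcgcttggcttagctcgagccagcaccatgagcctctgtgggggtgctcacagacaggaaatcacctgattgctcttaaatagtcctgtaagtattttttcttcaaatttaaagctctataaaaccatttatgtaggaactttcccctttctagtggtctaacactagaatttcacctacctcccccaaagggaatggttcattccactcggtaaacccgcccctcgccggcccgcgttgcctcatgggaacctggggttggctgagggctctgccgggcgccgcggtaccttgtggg

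The Mrpl24 window holds neither core although the gene was among the highest of the set. Mrps21 holds a tandem pair of ETS cores in reverse orientation, which begin 12 and 18 bases after its annotated start. Mrpl17 holds 2 NRF1 cores and 1 ETS core, and Mrps24 holds 1 of each. The windows of Mrps11 and Mrpl46 hold neither core and overlap by 141 bases (chr7:78783040-78783180), where each reads as the reverse complement of the other. The GENCODE start of Mrpl46, at 78783531, lies outside its RefSeq window (chr7:78783040-78783339).

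The set was expressed throughout, at moderate levels. The 77 genes together made up 0.0729% of TPM in replicate 2 and 0.0730% in replicate 1. The mean was 0.0730% ± 0.0000615 (SD, n = 2 technical libraries). Other measures of this share were further apart. It was 0.0435% of expected counts in replicate 2 and 0.0527% in replicate 1. Of TPM without Gm42418, Gm26917, Lars2 and the mitochondrial genes with their nuclear copies, it was 0.130% and 0.137%. Of the 77 genes, 76 stood at 1 TPM or more in both libraries, and the exception, Mrpl35, stood at 0.89 TPM in replicate 2 and 1.64 TPM in replicate 1. At 10 TPM or more in both libraries stood 21 genes. The median gene had 7.14 TPM in replicate 2 and 7.51 TPM in replicate 1, against 4.16 and 4.99 TPM for protein-coding genes at 1 TPM or more in both. In bulk tissue, fewer cells of a type and less RNA per cell cannot be told apart. Single values rest on few reads: expected counts ran between 16 and 250 in replicate 2 and between 16 and 378 in replicate 1, with medians of 51 and 47.5, which leaves the ratio of a typical gene with a 95% interval 1.19 wide on the log2 scale.

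Among the large subunit genes, Mrpl24 led with 32.3 TPM in replicate 2 and 42.6 TPM in replicate 1 (250 and 378 counts). It encodes a protein near the exit of the nascent chain tunnel. Mrpl30, with a bacterial homologue, stood at 30.6 and 32.1 TPM. Mrpl20, another bacterial homologue, stood at 22.5 and 21.04 TPM. The libraries were closer to each other for these 3 genes than for Mrpl42 and Mrpl52. Mrpl42, specific to mitochondrial ribosomes, stood at 15.5 TPM in replicate 2 and 40.3 TPM in replicate 1. Mrpl52, also specific to mitochondria, stood at 29.2 and 11.01 TPM. Mrpl58, which is related to bacterial release factors and acts as a peptidyl-tRNA hydrolase, Mrpl17 and Mrpl23 completed the 8 highest; Mrpl58 stood at 13.98 and 23.4 TPM, Mrpl17 at 19.99 and 16.5 TPM and Mrpl23 at 14.3 and 20.8 TPM.

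Among the small subunit genes, Mrps21 led with 36.0 TPM in replicate 2 and 41.5 TPM in replicate 1. Its protein has a bacterial homologue and is short, and its 38.8 ± 3.92 TPM (SD, n = 2) was the highest mean of the whole set. Mrps17 followed at 21.1 and 22.3 TPM. The next, Mrps24, stood at 24.3 TPM in replicate 2 and 7.61 TPM in replicate 1, the widest gap of the set (3.19-fold). Mrps12, Mrps15, Mrps18a, Mrps18b and Mrps33 made up the rest of the 8 highest, between 10.3 and 20.8 TPM in replicate 2 and between 10.8 and 18.5 TPM in replicate 1.

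The lowest genes of the large subunit were Mrpl11, Mrpl45, Mrpl1, Mrpl35 and Mrpl19. Mrpl19 stood at 1.27 TPM in replicate 2 and 1.13 TPM in replicate 1. Mrpl1, of the mobile stalk near the exit site for transfer RNA, stood at 1.26 and 1.75 TPM. Mrpl45, which tethers the ribosome to the inner membrane, stood at 1.86 and 1.41 TPM, and Mrpl11, of the factor-binding stalk base, at 2.72 and 1.35 TPM. The lowest genes of the small subunit were Mrps35, Mrps9, Mrps27, Mrps22 and Mrps31, with Mrps31 at 1.63 and 1.33 TPM and Mrps22 at 2.03 and 1.57 TPM. Mean levels of the highest and lowest genes of the set differed 32.3-fold.

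**Figure D2:**
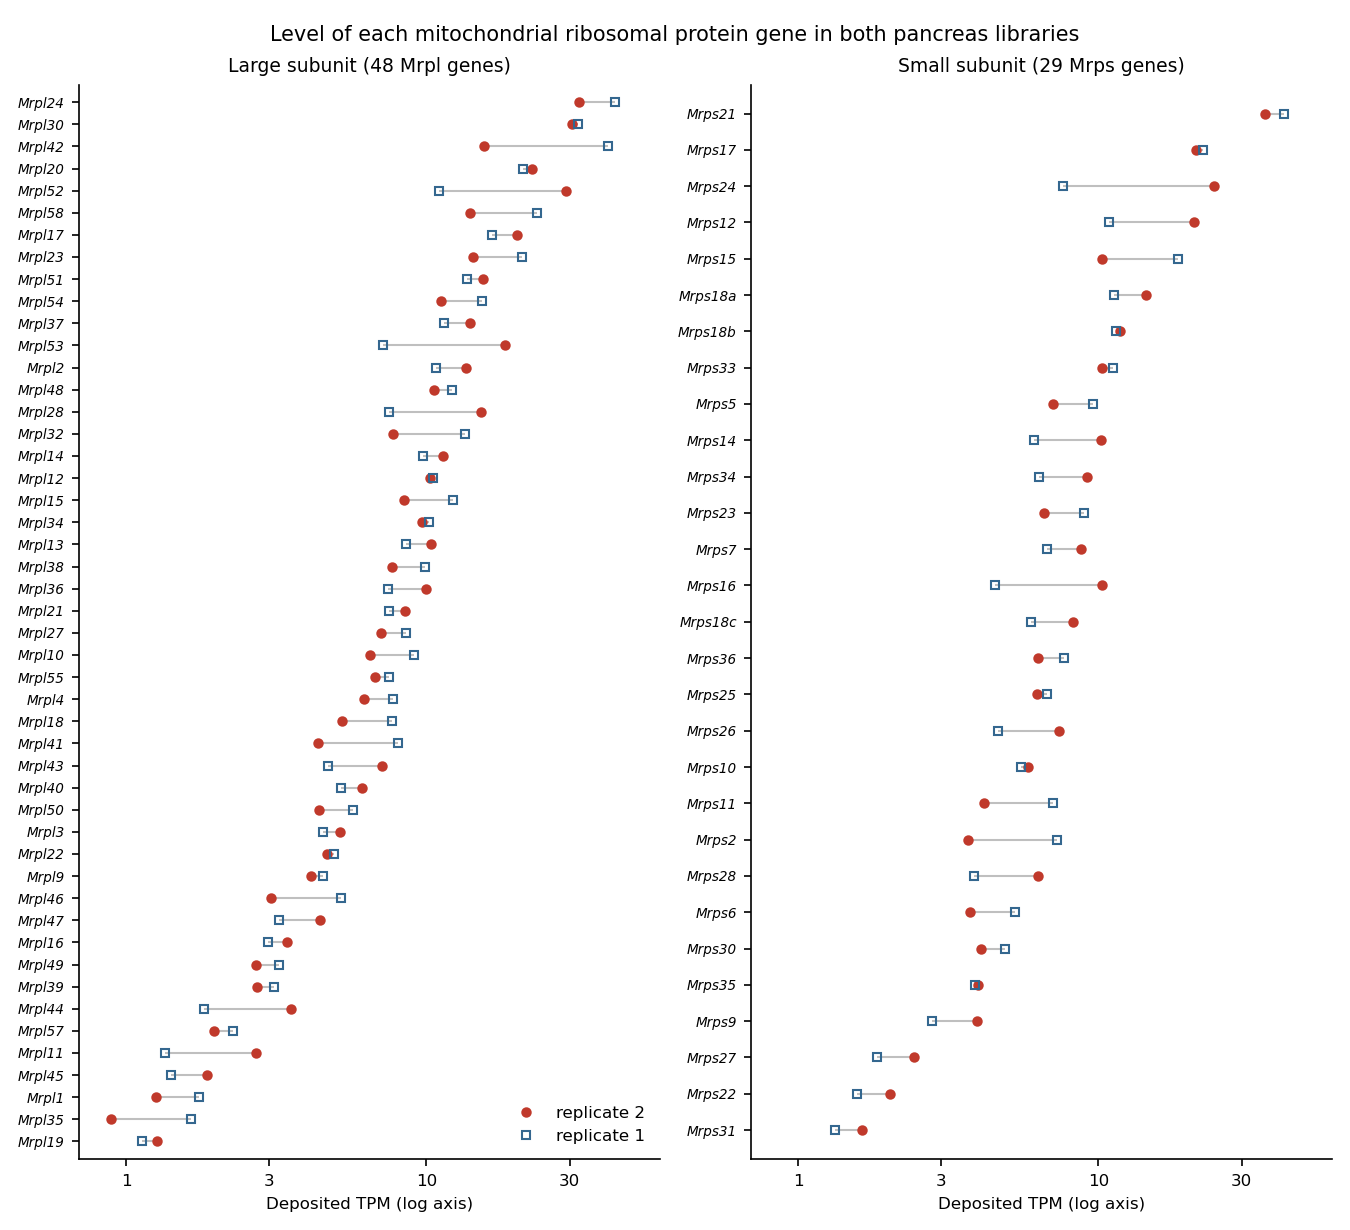
Deposited TPM on a log axis for each of the 48 large and 29 small subunit genes, in order of mean level; filled circles are replicate 2 and open squares replicate 1, joined by a line. Most pairs lie close together, while Mrpl42, Mrpl52, Mrpl53 and Mrps24 show wide gaps.

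The median levels of large and small subunit genes were close. The large subunit median was 7.42 TPM in replicate 2 and 7.72 TPM in replicate 1. The small subunit median was 7.07 and 6.73 TPM. The ratio of the medians, large over small, was 1.05 in replicate 2 and 1.15 in replicate 1 (mean 1.10 ± 0.0690, SD, n = 2). The summed TPM, which follows the number of genes, was 458 and 483 in the large subunit and 271 and 247 in the small subunit, a ratio of 1.69 and 1.95. Genes with a bacterial homologue (45) had medians of 8.21 and 7.54 TPM, and genes specific to mitochondrial ribosomes (31) had 6.57 and 6.35 TPM. Genes are not replicates, so none of these differences was tested.

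By role in the ribosome, the ranges overlapped widely. The stalk genes Mrpl10, Mrpl11 and Mrpl12, which recruit translation factors, spanned 2.72 to 10.3 TPM in replicate 2 and 1.35 to 10.6 TPM in replicate 1. The tunnel exit genes Mrpl22, Mrpl23, Mrpl24 and Mrpl45 spanned 1.86 to 32.3 TPM and 1.41 to 42.6 TPM, which covers nearly the whole range of the set. The 6 central protuberance genes Mrpl18, Mrpl27, Mrpl38, Mrpl40, Mrpl46 and Mrpl48 were tighter, at 3.05 to 10.6 TPM and 5.18 to 12.2 TPM. Of the S18 paralogues, Mrps18a stood at 14.4 TPM in replicate 2 and 11.3 TPM in replicate 1, Mrps18b at 11.9 and 11.5 TPM, and Mrps18c at 8.21 and 5.97 TPM. Of the small subunit genes with a bacterial homologue, the 6 listed as core genes, Mrps2, Mrps5, Mrps7, Mrps9, Mrps11 and Mrps12, spanned 3.67 to 20.8 TPM and 2.80 to 10.8 TPM. Mrps21 and Mrps17, bacterial homologues outside that list, stood above these ranges in both libraries. Mrps24, also outside it, did so only in replicate 2, at 24.3 TPM against 7.61 TPM in replicate 1.

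Shorter genes had higher levels. Across the 77 genes, log2 mean TPM and log2 mean effective length had Pearson r = -0.74 and Spearman rho = -0.69, given as a description. Effective length is also the divisor of TPM, so the measures share a term. Between the libraries the levels of the set kept much of their order, with Pearson r = 0.871 and Spearman rho = 0.846 for log2 TPM across the 77 genes. In TPM, 38 genes were higher in replicate 2 and 39 in replicate 1, 56 agreed within 1.5-fold and 7 differed over 2-fold.

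**Figure D3:**
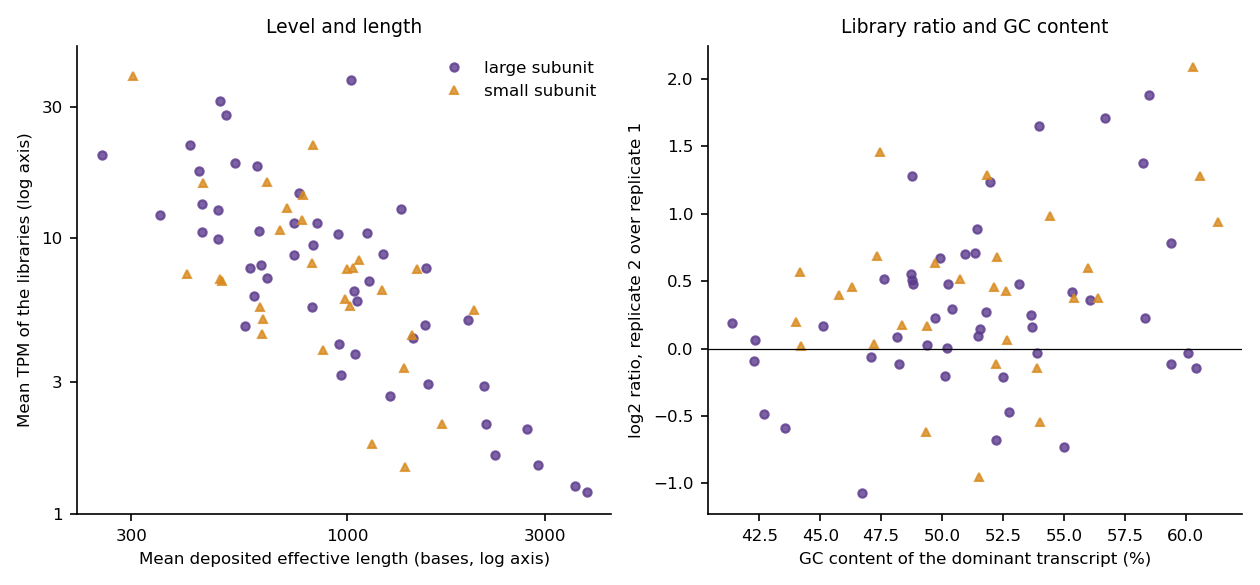
Left, mean TPM against mean deposited effective length for each gene, both on log axes; right, log2 ratio of replicate 2 over replicate 1 against the GC content of the dominant transcript in percent. Circles are large and triangles small subunit genes; levels fall along the length axis (r = -0.74), and ratios lie higher at high GC content (r = 0.32).

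Assembly and translation factors of mitochondrial ribosomes had lower medians than the set, and cytosolic ribosomal protein genes far higher ones. The 5 mitochondrial ribosomal proteins without an Mrp symbol, Dap3, Ptcd3, Chchd1, Aurkaip1 and Gadd45gip1, reached median levels of 16.5 TPM (replicate 2) and 10.2 TPM (replicate 1). Aurkaip1 was the highest of them at 19.7 and 20.2 TPM, and Gadd45gip1, of the large subunit, the lowest at 3.69 and 3.24 TPM. The 25 assembly factors, such as the GTPases Mtg1 and Mtg2, had medians of 3.02 and 2.09 TPM. The 16 genes of translation factors and insertion or stability factors had 2.72 and 3.52 TPM, led by Slirp, an RNA-binding partner of Lrpprc, at 10.8 and 15.9 TPM. The 84 cytosolic ribosomal protein genes had medians of 256 and 222 TPM, and their summed TPM exceeded that of the mitochondrial set 34.8-fold in replicate 2 and 30.6-fold in replicate 1.

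**Figure D4:**
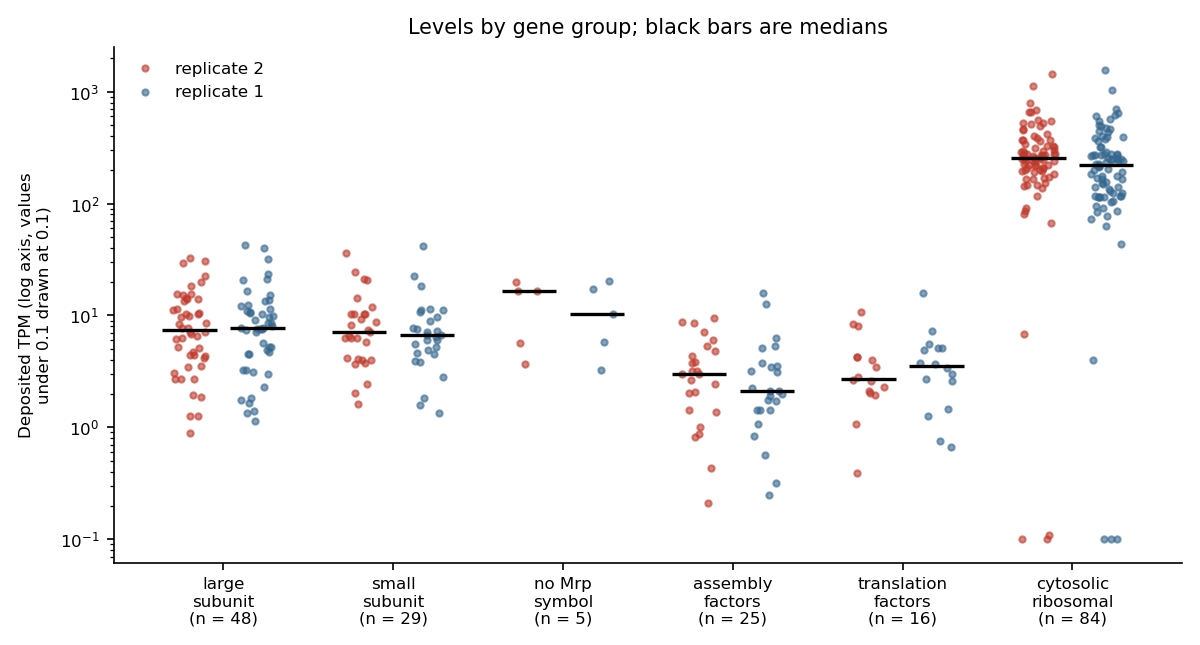
Deposited TPM on a log axis for each gene of 6 groups, with replicate 2 left of replicate 1 and black bars at the medians. Both subunits lie near 7 TPM, assembly and translation factors near 3 TPM, and cytosolic ribosomal protein genes near 240 TPM.

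The RNA partners of these proteins are mitochondrial. mt-Rnr1, the ribosomal RNA of the small subunit, stood at 5461 TPM in replicate 2 and 16367 TPM in replicate 1. mt-Rnr2, that of the large subunit, stood at 4914 and 11404 TPM. In both libraries these RNAs far exceeded the summed level of the set, which was 729 and 730 TPM, but their capture with polyadenylated RNA says little about their amount in the tissue. The 13 mitochondrial mRNAs, the templates of this ribosome, summed to 55.0 times the set in replicate 2 and 327 times in replicate 1. This sum leaves out the nuclear copies of these genes. Among the 13, only mt-Nd3 was alike, at 225 TPM in replicate 2 and 238 TPM in replicate 1. The mRNAs of the ribosomal proteins held a like share of TPM in both libraries, while the summed mRNAs of the mitochondrial genome did not. Their shares of expected counts were less alike, at 0.0435% in replicate 2 and 0.0527% in replicate 1 for the ribosomal proteins.

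The libraries were then compared gene by gene, as a measure of technical error. Expected counts were scaled with TMM, a factor that sets most genes to no change, and each gene was given a two-sided exact binomial test with Benjamini-Hochberg adjustment over 12452 genes. Calls needed a 2-fold difference or more (log2 ratio 1) and an adjusted p below 0.05. All 77 genes of the set entered the test. Of these, 10 were called higher in replicate 2 (12.99%), against 8.31% of all tested genes, and 1 was called lower (1.30%), against 4% of all tested genes. Called in either direction were 11 of 77 (14.3%), against 12.3% of all tested genes. Among the 10229 tested genes within the set's own range of summed counts (33 to 628), 8.50% were called higher and 3.66% lower.

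The ratios leaned towards replicate 2. The median log2 ratio was 0.27 in the set and -0.01 over all tested genes, and 57 of 77 genes lay above 0, against 6141 of 12452 tested genes. The large subunit had a median of 0.21 and the small subunit 0.42. Of the large subunit genes 6 were called higher and 1 lower, and of the small subunit genes 4 were called higher and none lower. The shares over all tested genes were 8.31% higher and 4% lower. The 95% interval lay above 0 for 21 genes of the set (27.3%), against 22% of all tested genes, and below 0 for 5 (6.49%), against 21% of all tested genes. Scaled by library totals instead, all ratios shifted by -0.54, the median of the set became -0.27 with 4 genes called higher (5.19%) and 9 lower (11.7%), and the median of all tested genes became -0.55, with 2.75% called higher and 20.9% lower. The share of higher genes among all calls was then 11.6%, against 67.5% with TMM.

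GC content moved with these ratios. Pearson r between the log2 ratio and GC content was 0.32 across the 77 genes and 0.44 across 12299 tested nuclear genes. With a smooth trend on GC content and length taken out, the median of the set was 0.20 and that of all tested genes -0.01, with 8 genes of the set called higher (10.4%) and 4 lower (5.19%), against 4.13% and 3.81% of all genes tested there. In either direction this was 15.6% of the set, against 7.94%. The part of GC content in single calls was not tested beyond this.

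Mrps24, whose protein lies where the messenger RNA enters the small subunit, had the highest ratio of the set. It had 123 counts in replicate 2 and 40 in replicate 1, a log2 ratio of 2.09 (95% interval 1.58 to 2.66, adjusted p = 1.36e-16 in the exact binomial test). Its exons overlap those of Urgcp on the same strand over 226 bases, 15.4% of its exonic length. The deposited posterior standard deviation, a measure of uncertainty in the count that leaves out counting error, was 0.32 counts in replicate 2 and 0.72 in replicate 1. Its dominant transcript is annotated as a retained intron transcript, which held 57.4% of the gene in replicate 2 and 78.2% in replicate 1. That transcript is rich in GC (60.3%). With the trend on its GC content and length taken out, the log2 ratio of Mrps24 was 1.13. Mrpl2, close to the peptidyl transferase centre, had 51 counts in replicate 2 and 19 in replicate 1, a log2 ratio of 1.88 (1.12 to 2.75, adjusted p = 1.85e-06 in the exact binomial test). Its TPM differed much less, at 13.5 in replicate 2 and 10.8 in replicate 1. Its deposited effective length was 501 bases in replicate 2 and 202 bases in replicate 1. Its main isoform held only 2.51 and 4.34 of its counts.

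Mrpl52 had 57 counts in replicate 2 and 24 in replicate 1, a log2 ratio of 1.71 (1.02 to 2.48, adjusted p = 2.40e-06 in the exact binomial test). Its exons overlap no other annotated gene. Mrpl53, also specific to mitochondria, had 67.8 and 29.8 expected counts and a log2 ratio of 1.65; 88.0% of its exonic length is shared with Gm42688, an annotated protein-coding gene on the same strand, and the posterior standard deviation was 1.22 and 1.51 counts. The other higher calls were weaker in size. Mrps16, Mrpl28, Mrps12, Mrps34, Mrpl11 and Mrpl44 had log2 ratios of 1.46, 1.38, 1.29, 1.28, 1.28 and 1.23. Of these, those of Mrpl28 and Mrps34 ended once the GC and length trend was taken out (0.72 and 0.29), and all 6 ended with library totals. Mrps34 also overlaps Nme3 on its own strand and Mapk8ip3 on the other, and Mrpl44 overlaps Wdfy1 on the other strand. If a dispersion of 0.1 is assumed in edgeR's exact test, which adds variation beyond counting error, none of the 11 calls of the set held; at an assumed dispersion of 0.01 all 11 held.

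Mrpl42 was the single gene of the set called lower. It had 60 counts in replicate 2 and 177 in replicate 1, a log2 ratio of -1.07 (-1.53 to -0.65, adjusted p = 1.82e-06 in the exact binomial test), and has 1 annotated transcript, with no overlapping gene. Of the genes that passed the adjusted p without reaching the size threshold, Mrps25, Mrpl58, Mrps2 and Mrps15 lay below 0, at -0.95, -0.73, -0.62 and -0.55. Without a size threshold, 18 genes of the set were higher and 5 lower, against 2346 and 2162 of all tested genes. A high level did not go with a steady ratio throughout. Of the genes with the highest levels, Mrpl24 had a log2 ratio of -0.11 (-0.35 to 0.12), Mrps21 of 0.06 (-0.37 to 0.48) and Mrps17 of 0.17 (-0.18 to 0.51), and these intervals leave room for changes of up to about 1.4-fold. Mrpl30 lay at 0.55 (0.18 to 0.92, adjusted p = 0.0113 in the exact binomial test), short of the size threshold, and Mrpl42 and Mrpl52 were called.

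**Figure D5:**
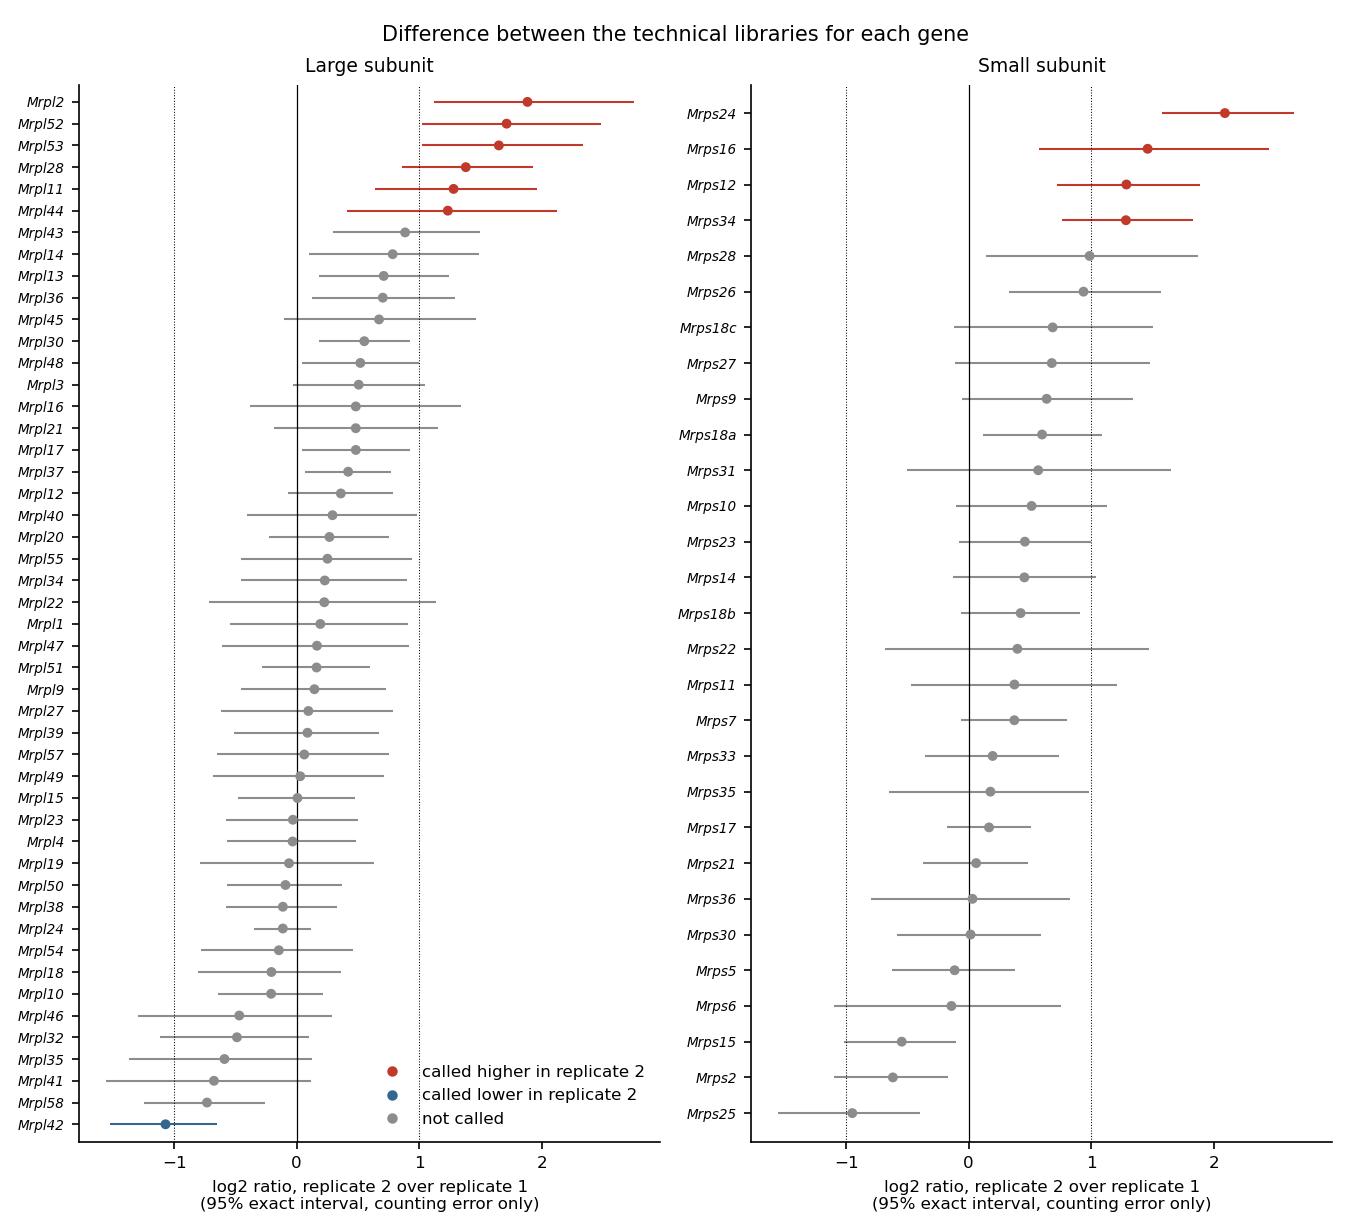
Log2 ratio of replicate 2 over replicate 1 with its 95% exact interval for each gene, by subunit; the solid line is no difference and dotted lines are a 2-fold difference. The genes called higher in replicate 2 run up to Mrps24 at 2.09, and Mrpl42 at -1.07 is the single gene called lower.

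The same comparison in the related groups gave values side by side. Over all tested genes, 8.31% were called higher and 4% lower. Of 81 tested cytosolic ribosomal protein genes, 19 were called higher in replicate 2 and 0 lower; their median log2 ratio was 0.52. Of 23 tested assembly factors, 5 were called higher and 0 lower (median 0.38): Mrm1, a methyltransferase of the large ribosomal RNA, at 1.54, Mtg1 at 1.44, Mtg2 at 1.14, and Rcc1l and Trub2, which belong to a pseudouridylation module of that RNA, at 1.57 and 1.198. Of 14 tested translation factors, 1 was called higher and 0 lower (median -0.02). That gene was Tsfm, the exchange factor of mitochondrial EF-Tu, with 46 counts in replicate 2 and 8 in replicate 1 and a log2 ratio of 2.93 (1.91 to 4.301). EF-Tu itself, Tufm, was at 0.81 and was not called. None of the 5 ribosomal proteins without an Mrp symbol was called, and their ratios lay between 0.24 (Chchd1) and 0.64 (Dap3).

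Isoform estimates often differed between the libraries. Of the 77 genes, 19 had 1 transcript in the deposited tables and 58 had several, up to 11. At 100 counts or more on average and with several transcripts, 3 of 4 genes had the same main isoform by TPM in both libraries. Mrpl24 kept its main isoform, which held 40.3% of the gene in replicate 2 and 64.6% in replicate 1, and Mrpl37 and Mrps17 kept theirs. Mrpl30 did not, although all of its TPM went to coding transcripts in both libraries. Down to a mean of 10 counts, 43 of 58 genes kept their main isoform. The differences could be wide. The isoform with the highest mean share of Mrpl38, a retained intron transcript, held 0% of the gene in replicate 2 and 97.2% in replicate 1. For Mrps11, again a retained intron transcript, it was 0% and 83.6%. For the coding isoform of Mrps10 it was 79.5% and 0%, and for that of Mrpl14 100% and 37.6%. For Mrpl2 the main isoform, a processed transcript, held 38.9% in replicate 2 and 81.5% in replicate 1. These shares rest on 2.51 and 4.34 expected counts of that isoform, out of 51 and 19 for the gene.

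In 18 of the 77 genes the main isoform was annotated as something other than protein coding, and in 11 genes coding transcripts held less than 50% of TPM in both libraries. Mrpl32 has 1 transcript in the tables, which the annotation lists under nonsense-mediated decay, so its coding share is 0%. The next lowest were Mrps26, where a retained intron transcript left coding transcripts with 2.56% in replicate 2 and 3.02% in replicate 1, and Mrpl51, with 5.25% and 8.46%. In Mrps25 the coding share was 6.22% and 22.8%, and 69.8% of its exonic length overlaps Nr2c2 on the opposite strand. Such shares depend on the annotation and on how few reads separate the isoforms. They also enter the levels: in 16 genes the deposited effective length differed over 1.2-fold between the libraries, and there the TPM ratio and the count ratio can part, as in Mrpl2.

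Few genes had counts that were uncertain by the deposited estimate, which leaves out counting error. That estimate, a posterior standard deviation for each count, was 0 in both libraries for 66 of the 77 genes and above 1% of the count in 9. The highest was that of Mrpl23, of the tunnel exit, at 8.79 of 50.8 counts in replicate 2 and 5.67 of 73.4 counts in replicate 1. Its processed pseudogene Mrpl23-ps1 on chromosome 2 had 22.2 and 9.60 counts with the same posterior standard deviations, so reads of the gene and its copy could not be told apart fully. The next were Mrps34, Mrpl53, Mrps5 and Mrps36. The pseudogenes Mrpl48-ps and Mrps36-ps1 to Mrps36-ps3 were listed at 0 counts. In the annotation, exons of 28 genes overlap a gene on the opposite strand and those of 7 overlap a gene on the same strand, 32 genes in all; the sources used here do not say whether the counting used strand, so reads of such pairs may be shared.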

How the data were processed

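The authors deposited tables of genes and transcripts for 2 technical libraries of 1 pancreas sample, grouped by their labels. Per the file headers, they hold an expected count, an estimate that need not be whole, with a posterior mean count, its posterior standard deviation and an effective length. The authors' TPM divides by effective length and has a fixed total. The deposited FPKM and the deposited posterior mean TPM, entered as a signal, served as alternatives. Per the deposited notes, build mm10 and GENCODE M4 were used; no aligner or quantifier is named (not given in the sources used here).

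Symbols, starts and exons came from GENCODE M21 on GRCm38, which matched 42462 of 43346 gene identifiers; promoter windows came from RefSeq (GRCm38.p6). Spike-in and other rows without a gene identifier stayed out of totals and tests. Expected counts were rounded to whole numbers and scaled with TMM in edgeR 4.0.16 (R 4.3.3). Because 1 library a side leaves edgeR's quasi-likelihood test no residual degrees of freedom, a two-sided binomial test, exact, was run with scipy 1.17.1 on each gene averaging 10 counts or more, adjusted by the Benjamini-Hochberg method across all genes tested, with 0.5 added to both counts for the log2 ratio. Intervals are exact Clopper-Pearson intervals at 95%. The test and intervals hold counting error only, PCR copies are not separate molecules, and the test compares libraries, not conditions or animals. It was tried on simulated data with planted changes, drawn with counting error only. Such data cannot show how the test behaves where libraries vary beyond counting error. Alternatives covered scaling (library totals, DESeq2 1.42.0 size factors, upper quartile, reduced totals), filters, pseudocounts, thresholds, posterior means, a trend on GC content and transcript length, assumed dispersions and subunit assignment. Python 3.11.15, numpy 2.4.6, pandas 2.3.3 and matplotlib 3.10.9 were used.

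Genes, lists, motifs and tests were chosen with earlier results of these data known. Named were, in each subunit, the 8 highest and 5 lowest genes by mean TPM, every called gene, the 5 with the largest difference in main isoform share, the 5 with the highest posterior standard deviation relative to the count, genes with a role in the lists, and genes of the lists. Genes with overlapping or opposite neighbours, those with low coding shares and the uncalled genes below 0 were named after their values were seen. RefSeq windows were not found for Mrpl4, Mrpl13, Mrpl15, Mrpl19, Mrpl38, Mrpl54, Mrps28, Mrps34 and Mrps35.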

Additional observations from a re-analysis of the deposited data

How the results depend on the processing

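Both large to small ratios stayed above 1, and the median log2 ratio of the large subunit stayed below that of the small subunit, under each alternative run. The median log2 ratio of the set turned below 0 with library totals. The share of the set was 0.0741% of posterior mean TPM, 0.0481% of expected counts and 0.134% of TPM without Gm42418, Gm26917, Lars2 and the mitochondrial genes with their nuclear copies, against 0.0730%. At a minimum of 5 TPM, 47 genes were detected. With subunits assigned by structure and the 5 ribosomal proteins without an Mrp symbol added, the ratio of medians was 1.03; assigned by structure with no gene added, chosen after seeing the data, it was 1.10 and the ratio of sums 2.08, against 1.10 and 1.82. Leaving out either library, the share was 0.0729% to 0.0730%, 76 to 77 genes were at 1 TPM, the ratio of medians was 1.05 to 1.15 and that of sums 1.69 to 1.95; no ratio between libraries is then left.

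Genes of the set called higher numbered 4 with library totals, 4 at a mean of at least 50 counts (where 41 genes were tested), 16 at a 1.5-fold threshold and 18 without one, and 0 in edgeR's exact test with an assumed dispersion of 0.1, against 10. Genes called lower numbered 9 with library totals, 2 with totals that leave out the same genes as above, 4 after the GC and length trend, 4 at 1.5-fold, 5 without a size threshold and 0 at a dispersion of 0.1, against 1. Over all tested genes, 14.8% were called higher and 11.4% lower at 1.5-fold, and 18.8% and 17.4% without a size threshold. These shares were 5.73% and 2.67% at a mean of at least 50 counts, and 5.89% and 7.03% with the reduced totals. At a dispersion of 0.01 all 11 calls held, with 10 higher and 1 lower. At 0.1, 31 of all tested genes were called higher and 14 lower; in the binomial test 26 genes of the set had an unadjusted p under 0.05. Higher genes made up 67.5% of all calls with TMM, 11.6% with library totals, 45.6% with the reduced totals and 52.0% after the trend. Called in either direction were 14.3% of the set and 12.3% of all tested genes with TMM, 16.9% and 23.7% with library totals, 15.6% and 7.94% after the trend, and 14.3% and 9.85% at a dispersion of 0.01. The median log2 ratio was -0.27 with library totals, 0.11 with the reduced totals and 0.17 at a mean of at least 50 counts. The same main isoform was found in 43 genes at a mean of at least 10 counts and in 0 at the highest minimum tried, which no gene reached. Summing Mrpl23-ps1 into Mrpl23, chosen after seeing the data, moved no count. Apart from fewer genes tested, causes of these moves were not tested. No paired analysis was possible because there is 1 group. At summed counts of 33 to 628 a gene, depth leaves single ratios with wide intervals.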
